A study of Homo sapiens with 12 samples.

Results

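The genes described here are 10 members of the NRF2 antioxidant pathway, measured by RNA sequencing in OVCAR8 cells, an established human ovarian cancer cell line. They were taken by gene symbol from a list that names 7 genes known as targets of NRF2 (HMOX1, GCLM, GCLC, NQO1, TXNRD1, SRXN1 and OSGIN1) and 3 genes that control the pathway (NFE2L2, KEAP1 and BACH1), out of 26485 genes in the count files. All 10 were among the 14865 genes that passed the filter on low counts. Cells received vehicle (control), EC359 at 150 nM, trametinib at 100 nM, or both at these doses, each for 7 h, and 3 libraries were sequenced per group, 12 in all. EC359 is an inhibitor of the leukemia inhibitory factor receptor, and trametinib inhibits the kinases MEK1 and MEK2. The comparison asks how the antioxidant genes responded to each agent and to the pair in one cell line, at one dose of each agent and one time. The labels do not say that the libraries came from separate cultures, so the p-values measure the spread between these libraries, which may be technical.

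NRF2, the protein made from NFE2L2, is a transcription factor that cells use against oxidants and electrophiles. In unstressed cells KEAP1, an adaptor of a CUL3 ubiquitin ligase, binds NRF2 and sends it to the proteasome. Reactive compounds modify cysteines of KEAP1, after which NRF2 accumulates, pairs with a small MAF protein and binds antioxidant response elements. BACH1 also pairs with small MAF proteins and occupies such elements as a repressor until heme or oxidants release it, and HMOX1 is its best known target. The pathway is thus set largely through protein stability and DNA binding, neither of which was measured here.

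To show the DNA next to these genes, promoter windows of 300 bases were read from RefSeq (GRCh38.p14), each from 250 bases before to 50 bases after a start site. The table held 14 windows for 9 of the 10 members, and HMOX1 had no entry. Both strands were searched for the core of the antioxidant response element, TGACNNNGC, and for the AP-1 site TGACTCA, which is not a match of that core. The core was present in 4 of 14 member windows, and in 13.3% of 35114 windows of the same length. Counted by gene, the core was present in 3 of 9 members and in 16.1% of 27303 genes. The AP-1 letters were present in 2 of 14 member windows and in 4.95% of all windows. By gene, these letters were present in 2 of 9 members and in 6.05% of the 27303 genes. Either motif was found in 6 of 14 member windows, against 17.2% of all windows. The 5 windows below carry such a match and are printed 5′ to 3′ on the strand of the gene, with the matched letters in capitals (a match on the opposite strand is shown as it reads on the gene's strand). Positions are counted from the start site, and negative positions lie before it.
GCLM: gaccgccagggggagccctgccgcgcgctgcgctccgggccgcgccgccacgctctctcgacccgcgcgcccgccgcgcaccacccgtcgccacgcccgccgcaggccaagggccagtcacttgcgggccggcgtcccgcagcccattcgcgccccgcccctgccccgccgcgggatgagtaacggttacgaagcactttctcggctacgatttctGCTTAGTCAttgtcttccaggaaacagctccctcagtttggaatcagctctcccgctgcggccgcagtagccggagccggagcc
TXNRD1: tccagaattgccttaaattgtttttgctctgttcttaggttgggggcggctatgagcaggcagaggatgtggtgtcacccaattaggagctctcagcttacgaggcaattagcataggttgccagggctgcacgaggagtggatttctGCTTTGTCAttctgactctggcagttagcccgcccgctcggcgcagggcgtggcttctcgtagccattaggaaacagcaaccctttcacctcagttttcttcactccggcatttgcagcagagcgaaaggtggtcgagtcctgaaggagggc
KEAP1: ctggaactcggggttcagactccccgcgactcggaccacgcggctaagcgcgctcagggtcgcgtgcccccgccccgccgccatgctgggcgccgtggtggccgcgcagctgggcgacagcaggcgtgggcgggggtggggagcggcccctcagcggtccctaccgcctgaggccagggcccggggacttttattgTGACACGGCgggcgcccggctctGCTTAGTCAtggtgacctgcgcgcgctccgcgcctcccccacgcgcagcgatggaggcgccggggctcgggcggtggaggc
OSGIN1: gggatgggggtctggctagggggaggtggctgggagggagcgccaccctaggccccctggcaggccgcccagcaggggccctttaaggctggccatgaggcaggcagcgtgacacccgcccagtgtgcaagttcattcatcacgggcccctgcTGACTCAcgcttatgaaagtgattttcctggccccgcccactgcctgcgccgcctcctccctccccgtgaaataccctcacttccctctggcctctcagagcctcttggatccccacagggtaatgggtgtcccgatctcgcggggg
BACH1: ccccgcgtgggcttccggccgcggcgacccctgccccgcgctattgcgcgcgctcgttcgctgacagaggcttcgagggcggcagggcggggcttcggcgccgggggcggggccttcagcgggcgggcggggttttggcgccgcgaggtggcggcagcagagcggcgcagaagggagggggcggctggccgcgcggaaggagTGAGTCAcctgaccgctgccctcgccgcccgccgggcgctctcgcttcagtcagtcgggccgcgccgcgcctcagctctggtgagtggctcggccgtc
GCLM (chr1:93909381-93909680, minus strand) had 1 core, at position -34 on the opposite strand. The TXNRD1 window shown (chr12:104286782-104287081, plus strand) had 1 core at -102, also on the opposite strand, and another TXNRD1 window (chr12:104215529-104215828) had a core at -99 and one at -8. The KEAP1 window shown (chr19:10502722-10503021, minus strand) had 2 cores, at -54 on the gene's strand and at -31 on the opposite strand. The core letters at -34 in GCLM and at -31 in KEAP1 were the same 9 bases, GCTTAGTCA. OSGIN1 (chr16:83952990-83953289, plus strand) had the AP-1 letters at -97, and BACH1 (chr21:29298672-29298971, plus strand) had them at -48 on the opposite strand. A match is a description of the letters only, and binding was not measured.

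In the authors' annotation of hg38, the members lie on 9 chromosomes. HMOX1 spans chr22:35381067-35394214, GCLM spans chr1:93885200-93909598 and GCLC spans chr6:53497341-53545129. NQO1 (chr16:69709401-69726668) and OSGIN1 (chr16:83953222-83966332) are both on chromosome 16. TXNRD1 spans chr12:104215779-104350307 and SRXN1 spans chr20:646624-653370. NFE2L2 spans chr2:177230303-177265131, KEAP1 spans chr19:10486120-10503378 and BACH1 spans chr21:29298795-29361896. Counts were summed over the exons of each gene, and no member shared an exonic base with another annotated gene on either strand. Reads with several alignments had been split among them, and TXNRD1 had a fractional count in every library while OSGIN1 and BACH1 had whole counts in every library.

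Libraries held 24790392 to 32467283 assigned counts. Levels below are in CPM, the read count scaled to a common library size by the trimmed mean of M-values (TMM), and a count of 3 corresponded to 0.0883 to 0.127 CPM. The cells carried epithelial and Muellerian markers, with 6 of 8 at 1 CPM or more in every group (KRT7, KRT8, KRT18, PAX8, EPCAM and WT1), while CDH1 and MUC16 were below it. Summed over the list, these markers ranged from 4015 to 4097 CPM in control libraries, from 3971 to 4016 with EC359, from 3582 to 3692 with trametinib and from 3741 to 3893 with both. Of 8 markers of other cell types, only COL1A1 reached 1 CPM, and the leukocyte markers PTPRC and CD3E were at 0. The summed level of that list was 415.5 to 436.1 CPM in control, 513.8 to 525.6 with trametinib, 219.8 to 232.4 with EC359 and 314.1 to 336 with both, and its part in the results was not tested.

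With EC359 alone, all 10 members rose, from 1.10-fold for SRXN1 to 45.4-fold for HMOX1, and 5 of them at least 2-fold (HMOX1, OSGIN1, TXNRD1, GCLM and BACH1). A gene was called when edgeR's quasi-likelihood F-test gave an adjusted p below 0.05 (Benjamini-Hochberg, over all 14865 genes), and called at 2-fold when it also changed at least 2-fold. Among all genes tested, 30.8% were called higher and 30.3% lower with EC359, and 4.19% were called higher at 2-fold. The libraries of the EC359 and control groups did not overlap for 10 of 10 members, and for 64.7% of all genes. The median log2 fold change was 1.08 over the members and -0.01 over all genes.

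**Figure D1:**
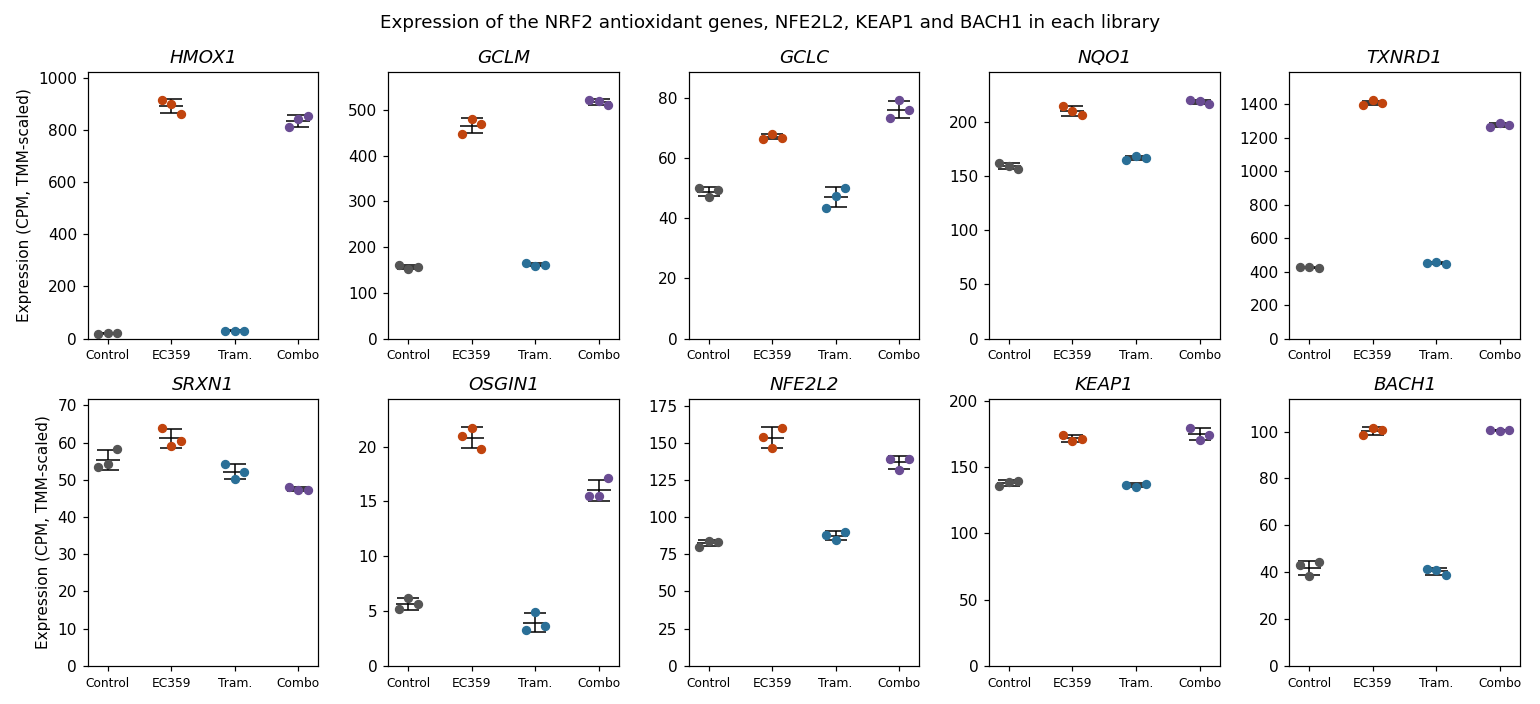
Level of each member in every library, in TMM-scaled CPM on a linear axis from 0 that differs between genes, for the 4 groups. Points are the 3 libraries of a group and the bar is their mean ± SD. HMOX1 stood at 19.1 to 20.1 CPM in control and at 862 to 914 CPM with EC359, while SRXN1 stayed between 47.2 and 64.0 CPM in all libraries.

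HMOX1 encodes heme oxygenase 1, which breaks heme down to biliverdin, iron and carbon monoxide. Its level was 19.1, 20.1 and 19.7 CPM in the 3 control libraries and 914, 899 and 862 CPM in the 3 EC359 libraries. The groups lay far apart and did not overlap. The log2 fold change was 5.50 ± 0.03 (SE, edgeR adjusted p = 7.18e-70), which placed HMOX1 at rank 6 from the highest of 14865 genes.

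GCLC and GCLM encode the catalytic and the modifier subunit of glutamate-cysteine ligase, which makes the first intermediate of glutathione. GCLM was at 160, 153 and 157 CPM in control and at 447, 479 and 469 CPM with EC359, an increase of 1.57 ± 0.03 in log2 (SE, edgeR adjusted p = 3.99e-48). GCLC moved less, from 49.9, 47.1 and 49.2 CPM to 66.4, 67.9 and 66.7 CPM, or 0.46 ± 0.04 in log2 (SE, edgeR adjusted p = 3.03e-14). In CPM per kilobase of exon, the level of GCLM over that of GCLC was 2.43 ± 0.02 in control and 5.24 ± 0.14 with EC359 (SD, n = 3 each), and the libraries of the groups did not overlap. The paired subunits therefore rose by unequal amounts at the RNA level.

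TXNRD1 encodes the cytosolic thioredoxin reductase, which passes electrons from NADPH to thioredoxin. It was at 426, 425 and 420.4 CPM in control and at 1396, 1422 and 1404 CPM with EC359, and rose by 1.73 ± 0.02 in log2 (SE, edgeR adjusted p = 3.32e-54). SRXN1 encodes sulfiredoxin, which restores overoxidized peroxiredoxins. Its control libraries were at 53.4, 54.2 and 58.3 CPM and its EC359 libraries at 64.0, 59.1 and 60.4 CPM. The groups were separated by less than 1 CPM at their nearest libraries, and the increase was 0.14 ± 0.04 in log2 (SE, edgeR adjusted p = 0.00232). This was the smallest change among the members, and scaling by total counts instead of TMM gave 0.01 (edgeR adjusted p = 0.877).

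NQO1 encodes a quinone reductase and OSGIN1 a growth-inhibiting protein induced by oxidative stress. NQO1 was at 163, 159.6 and 157 CPM in control and at 215, 210 and 206 CPM with EC359, a rise of 0.40 ± 0.03 in log2 (SE, edgeR adjusted p = 9.36e-20). OSGIN1 had the lowest counts of the members, with 5.14, 6.18 and 5.62 CPM in control and 21.0, 21.7 and 19.8 CPM with EC359. Its increase was 1.88 ± 0.09 in log2 (SE, edgeR adjusted p = 2.35e-23), and its standard error was the largest among the members.

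Transcripts of the 3 regulators rose as well, those of the activator NFE2L2, of KEAP1 and of the repressor BACH1. NFE2L2 was at 80.2, 84.1 and 83.5 CPM in control and at 154, 146 and 160.2 CPM with EC359, or 0.89 ± 0.03 in log2 (SE, edgeR adjusted p = 2.33e-30). KEAP1 went from 136, 139 and 139 CPM to 174, 169.8 and 171 CPM, or 0.31 ± 0.03 in log2 (SE, edgeR adjusted p = 6.81e-15). BACH1, the repressor, went from 42.9, 38.5 and 44.3 CPM to 98.5, 102 and 101 CPM, or 1.26 ± 0.04 in log2 (SE, edgeR adjusted p = 1.11e-34). In CPM per kilobase, KEAP1 over NFE2L2 was 2.07 ± 0.02 in control and 1.39 ± 0.06 with EC359, whereas BACH1 over NFE2L2 was 0.25 ± 0.02 and 0.32 ± 0.02 (SD, n = 3 each). Neither ratio overlapped between the groups, so the 3 transcripts changed in unequal proportion.

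**Figure D2:**
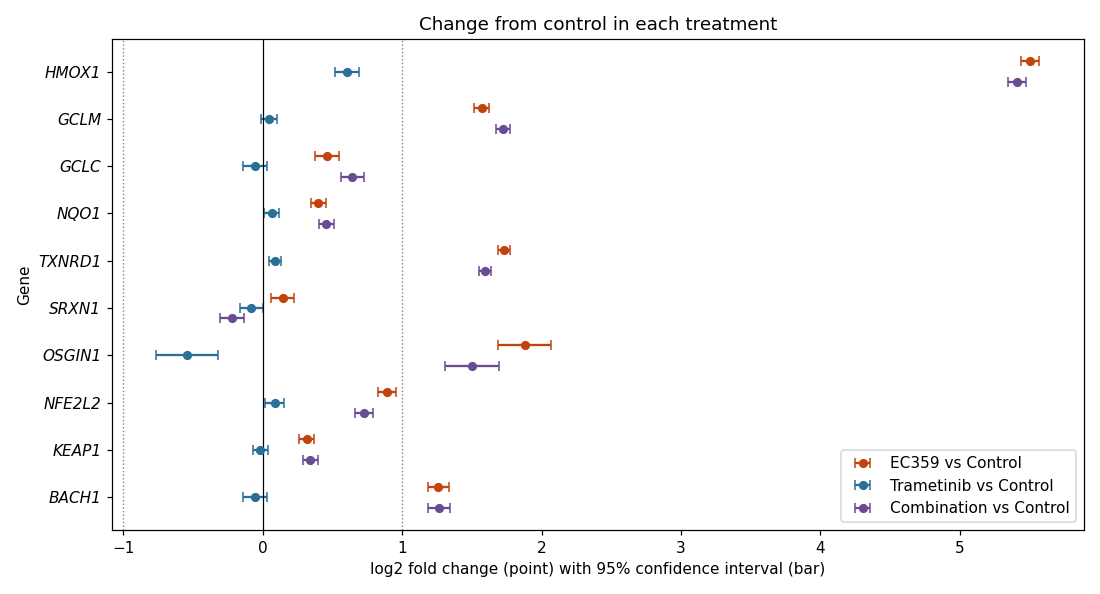
Log2 fold change of each member against control with EC359, trametinib or both. Points are edgeR estimates, bars are 95% confidence intervals and the vertical line marks no change. HMOX1 lies at 5.50 with EC359 and 5.41 with both agents, and SRXN1 lies on opposite sides of the line in these groups.

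Trametinib alone changed few members. It raised HMOX1 and TXNRD1, lowered OSGIN1 and gave no call for the other 7, and none changed 2-fold. Among all genes 13% were called higher and 15.2% lower, 28.2% in either direction, so 3 of 10 members called was close to the background. In the 2-fold count, 0 of 10 members stood beside 1.43% of all genes, DESeq2 also gave 0, and 5 members had an unadjusted p below 0.05 in edgeR. Libraries did not overlap for 5 of 10 members and for 40.1% of genes. Under size factors of DESeq2 or total counts in edgeR, NQO1 and NFE2L2 were called too, which made 5. NQO1 was also called in DESeq2 (DESeq2 adjusted p = 0.0432). NFE2L2 was also called in edgeR without a filter on low counts (adjusted p = 0.0401) and without trametinib replicate 2 (0.0276). In the edgeR fit on the groups compared alone it was called as well, at the limit (adjusted p just under 0.05, which rounds to 0.05).

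HMOX1 was at 28.7, 30.6 and 30.5 CPM with trametinib, above all control libraries, and rose by 0.61 ± 0.04 in log2 (SE, edgeR adjusted p = 1.3e-17). OSGIN1 was at 3.25, 4.90 and 3.60 CPM, below all control libraries, and fell by 0.54 ± 0.11 in log2 (SE, edgeR adjusted p = 8.8e-05). TXNRD1 was at 448, 457 and 445 CPM, a rise of 0.09 ± 0.02 in log2 (SE, edgeR adjusted p = 0.00144) that is small beside its response to EC359. The other members changed less. NQO1 was at 165, 169 and 167 CPM, above all control libraries, with an edgeR adjusted p of 0.0585. GCLM (165, 158 and 161 CPM) and GCLC (43.4, 47.5 and 50.2 CPM) overlapped their control libraries. KEAP1 (137, 135 and 138 CPM) had a 95% confidence interval of the log2 difference from -0.07 to 0.04, and BACH1 (41.2, 41.1 and 38.6 CPM) one from -0.14 to 0.03. NFE2L2 (88.1, 84.5 and 90.2 CPM) had an interval from 0.02 to 0.15 and an edgeR adjusted p of 0.0566.

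With both agents, 9 members were higher than control and SRXN1 was lower, and 5 passed 2-fold (HMOX1, GCLM, TXNRD1, OSGIN1 and BACH1). The comparisons with control share the same control libraries. Among all genes, 35% were called higher and 34.7% lower, 7.27% were higher at 2-fold, and libraries did not overlap for 71.8%, against 10 of 10 members. The median log2 fold change was 0.995 over the members and -0.01 over all genes. HMOX1 was at 811, 842 and 854 CPM, or 5.41 ± 0.03 in log2 above control (SE, edgeR adjusted p = 1.76e-69), at rank 4 of 14865 genes. GCLM was at 521, 520.1 and 510.4 CPM and TXNRD1 at 1266, 1288 and 1277 CPM, with log2 fold changes of 1.72 and 1.59. OSGIN1 was at 15.5, 15.5 and 17.1 CPM and BACH1 at 101, 100.4 and 101 CPM, with log2 fold changes of 1.501 and 1.26. SRXN1 was at 48.1, 47.3 and 47.2 CPM, below every library of the other 3 groups, and fell by 0.22 against control (log2, SE 0.04, edgeR adjusted p = 7.92e-06).

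Between the combination and EC359 alone, 2 members were higher (GCLM and GCLC), 5 were lower (HMOX1, TXNRD1, SRXN1, OSGIN1 and NFE2L2) and 3 were not called. Of all genes, 24.1% were called higher and 25.2% lower, 49.2% in either direction, and libraries did not overlap for 53.7%, against 8 of 10 members. No member reached 2-fold, against 3.24% of genes, DESeq2 also gave 0, and 8 members had an unadjusted p below 0.05 in edgeR. The lower members included SRXN1, by a log2 change of -0.36 ± 0.04 (SE, edgeR adjusted p = 2.08e-10), and OSGIN1, by -0.38 ± 0.09 (SE, edgeR adjusted p = 0.000257). NFE2L2, at 139, 132 and 139 CPM with both agents, was lower by -0.16 ± 0.03 in log2 (SE, edgeR adjusted p = 2.07e-05). TXNRD1 was lower by -0.14 and HMOX1 by -0.09 in log2, each with libraries that did not overlap. GCLC, at 73.2, 79.1 and 76.0 CPM, was higher by 0.18 ± 0.04 in log2 (SE, edgeR adjusted p = 0.000155), and GCLM by 0.15 ± 0.02 (SE, edgeR adjusted p = 5.83e-07). For BACH1 the 95% confidence interval of the log2 difference was -0.07 to 0.08, for KEAP1 (179.9, 171 and 174 CPM) it was -0.03 to 0.08, and for NQO1 (220.2, 219.7 and 217 CPM) it was 0.00 to 0.11.

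**Figure D3:**
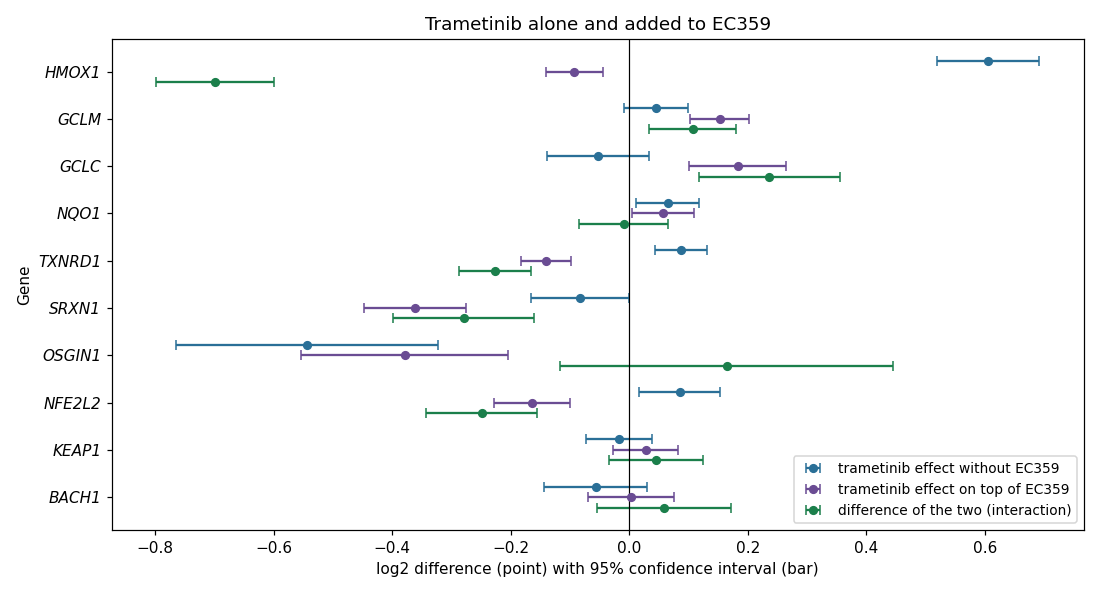
Log2 effect of trametinib on each member, without EC359 (trametinib against control) and on top of EC359 (combination against EC359), and the difference of these effects (the interaction), each with its 95% confidence interval. HMOX1 lies at 0.61 without EC359 and at -0.09 with it, a difference of -0.70.

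Adding EC359 to trametinib gave 9 members higher and SRXN1 lower, with 5 at 2-fold or more. Among all genes 35.3% were called higher and 32.9% lower, 6.12% were higher at 2-fold, and libraries did not overlap for 70.3%, against 10 of 10 members. HMOX1 was higher by 4.81, OSGIN1 by 2.04, GCLM by 1.68, TXNRD1 by 1.505 and BACH1 by 1.32 in log2. SRXN1, at 54.4, 50.3 and 52.0 CPM with trametinib alone, was lower in the combination by -0.14 ± 0.04 in log2 (SE, edgeR adjusted p = 0.00412). This comparison shares the combination libraries with those above and is not a separate set of samples.

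Whether the response to EC359 differed with trametinib present was tested by the interaction, the log2 change on adding EC359 to trametinib minus that on adding it to vehicle. It was called for 6 members, 2 higher and 4 lower, while 14.4% of all genes were called higher and 15.9% lower, 30.3% in either direction. HMOX1 had the largest difference, -0.70 ± 0.05 (SE, edgeR adjusted p = 3.76e-17). Its level was higher with trametinib than in control and lower with both agents than with EC359. SRXN1 followed with -0.28 ± 0.06 (SE, edgeR adjusted p = 0.000183), NFE2L2 with -0.25 ± 0.05 (SE, edgeR adjusted p = 3.01e-05) and TXNRD1 with -0.23 ± 0.03 (SE, edgeR adjusted p = 2.57e-08). The response was larger for GCLC, by 0.24 ± 0.06 (SE, edgeR adjusted p = 0.00153), and for GCLM, by 0.11 ± 0.04 (SE, edgeR adjusted p = 0.0209). The GCLM call was lost without control replicate 1 (0.09), without EC359 replicate 1 (0.08), without trametinib replicate 2 (0.09) and under total counts (0.08). BACH1 had an interval from -0.05 to 0.17 and KEAP1 one from -0.03 to 0.12. None of the members differed 2-fold in this test, against 1.57% of all genes, DESeq2 also gave 0, and 6 had an unadjusted p below 0.05 in edgeR.

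Levels of different genes were compared in CPM per kilobase of exon. In control cells TXNRD1 was the most abundant at 91.9 ± 0.63, followed by NQO1 at 60.7 ± 1.05, KEAP1 at 51.1 ± 0.76, GCLM at 31.0 ± 0.72, NFE2L2 at 24.7 ± 0.63 and SRXN1 at 20.6 ± 0.99 (SD, n = 3 each). GCLC at 12.8 ± 0.38 and HMOX1 at 12.3 ± 0.33 overlapped, and BACH1 at 6.10 ± 0.44 and OSGIN1 at 2.91 ± 0.27 were lowest (SD, n = 3 each). With EC359, HMOX1 came first at 561 ± 16.6, ahead of TXNRD1 at 305 ± 2.85 and GCLM at 92.1 ± 3.25, and no neighbours in the order overlapped (SD, n = 3 each). With trametinib the order was that of control except that HMOX1 at 18.8 passed GCLC and overlapped SRXN1 at 19.4. With both agents HMOX1 was at 526 ± 14.1 and TXNRD1 at 277 ± 2.42, and SRXN1 at 17.7 ± 0.19 fell behind GCLC at 19.95 ± 0.78 (SD, n = 3 each). HMOX1 made up 5.32% of the summed level of the 7 target genes in control, 7.66% with trametinib, 51.5% with EC359 and 50.8% with both. Without HMOX1 the sum was 219.9 in control, 227 with trametinib, 528 with EC359 and 509 with both.

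**Figure D4:**
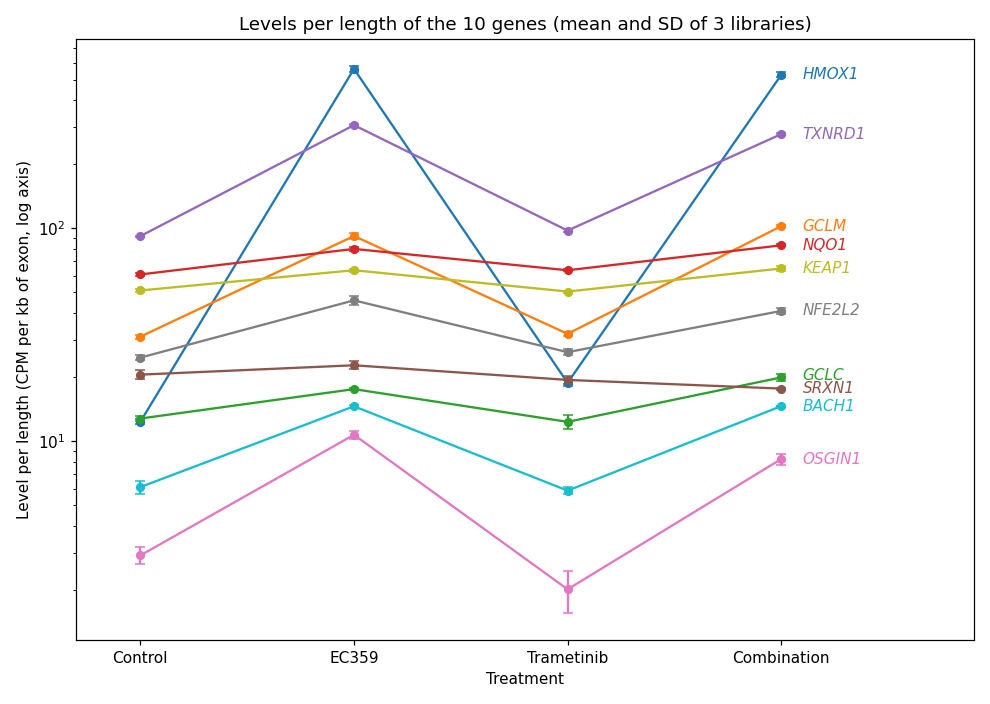
Mean level of each member in CPM per kilobase of exon on a log axis, in the 4 groups. Bars on the points are the SD of 3 libraries and lines join the values of a gene. HMOX1 moves from 12.3 in control to 561 with EC359, and OSGIN1 is the lowest member in each group.

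The genes whose levels most resembled a member were sought by Pearson's r of log2(CPM + 1) over the 12 libraries, among 9838 genes of at least 10 CPM in their highest group. These r values are descriptive, and they rest mainly on the split between libraries with and without EC359, which raised all of these genes together. For HMOX1 the nearest were SQSTM1 (r = 0.9992), ENO2 (0.9989), PIM3 (0.9986), RUNX1 (0.9985) and NFKBIA (0.9984). SQSTM1, which encodes the autophagy receptor p62, a protein that binds KEAP1, had mean levels of 416 CPM in control, 507 with trametinib, 1552 with EC359 and 1540 with both. BACH1 was nearest to JMJD1C, STK17B and P4HA1 (r = 0.9981, 0.9981 and 0.9979), and KEAP1 to DCP1A, KMT2D and DIAPH1 (r = 0.9961, 0.9954 and 0.9947).

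Genes of related functions were followed in 5 lists, and whether NRF2 controls them in these cells was not tested. Their counts stand against the shares of all genes called higher and lower. Those shares were 30.8% and 30.3% with EC359, 13% and 15.2% with trametinib, and 35% and 34.7% with both agents. Of 10 genes for glutathione and NADPH supply, 8 were higher and 1 lower with EC359, 1 was higher with trametinib, and 7 were higher and 1 lower with both, with medians of 0.29, 0.02 and 0.36 in log2. Under total counts these medians were 0.15, 0.05 and 0.22. The count with trametinib was 2 under DESeq2's size factors and 4 under total counts. SLC7A11, the cystine carrier, averaged 31.5 CPM in control, 54.3 with trametinib, 158 with EC359 and 199.9 with both. Its partner SLC3A2 averaged 197, 197, 444 and 581 CPM in the same order. Both subunits of the transporter therefore passed 2-fold with EC359, and SLC7A11 was called with trametinib as well (log2 fold change 0.79).

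Of 12 partners and turnover factors of NRF2, 8 were higher and 3 lower with EC359, 1 was higher and 3 lower with trametinib, and 7 were higher and 4 lower with both, so the counts with trametinib were near those shares. The small MAF genes, whose proteins pair with NRF2 or BACH1, rose steeply with EC359. MAFK averaged 24.8 CPM in control, 25.3 with trametinib, 165 with EC359 and 221 with both, and MAFG averaged 40.8, 36.7, 179 and 210 CPM. With trametinib alone MAFF fell from 66.8 to 17.3 CPM (log2 fold change -1.95) and MAFG by 0.16 in log2, while MAFK was not called (0.04), and these sizes were not tested against each other. MAFF stood at 461 CPM with EC359 and 309 CPM with both. SQSTM1 rose by 1.90 with EC359, 0.29 with trametinib and 1.89 with both in log2.

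Of 7 tested genes of the thioredoxin and peroxiredoxin list, 3 were higher and 1 lower with EC359, 1 was higher and 2 lower with trametinib, and 5 were higher and 1 lower with both. Under total counts these became 3 higher and 4 lower with EC359, and 3 higher and 3 lower with both. SESN2, a stress-induced sestrin, averaged 24.6 CPM in control, 25.3 with trametinib, 90.0 with EC359 and 136 with both. TXNIP, which binds and inhibits thioredoxin, went the other way, at 6.15, 6.83, 2.44 and 1.54 CPM. Of 9 tested heme and iron genes, 6 were higher and 1 lower with EC359, 5 were higher and 1 lower with trametinib, and 5 were higher and 2 lower with both. ABCB6, a porphyrin transporter, averaged 20.4, 25.1, 30.1 and 47.4 CPM in the same order. Of 16 tested detoxification enzymes and exporters, 8 were higher and 1 lower with EC359, 3 were higher and 1 lower with trametinib, and 8 were higher and 2 lower with both, and none passed 2-fold. Among these, the AKR1C genes are near-identical copies that can share reads. With total counts as the scale, the EC359 medians of the thioredoxin list and the detoxification list changed sign, from 0.05 to -0.08 and from 0.10 to -0.03, and the detoxification counts became 2 higher and 4 lower with EC359 and 6 higher and 2 lower with both.

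**Figure D5:**
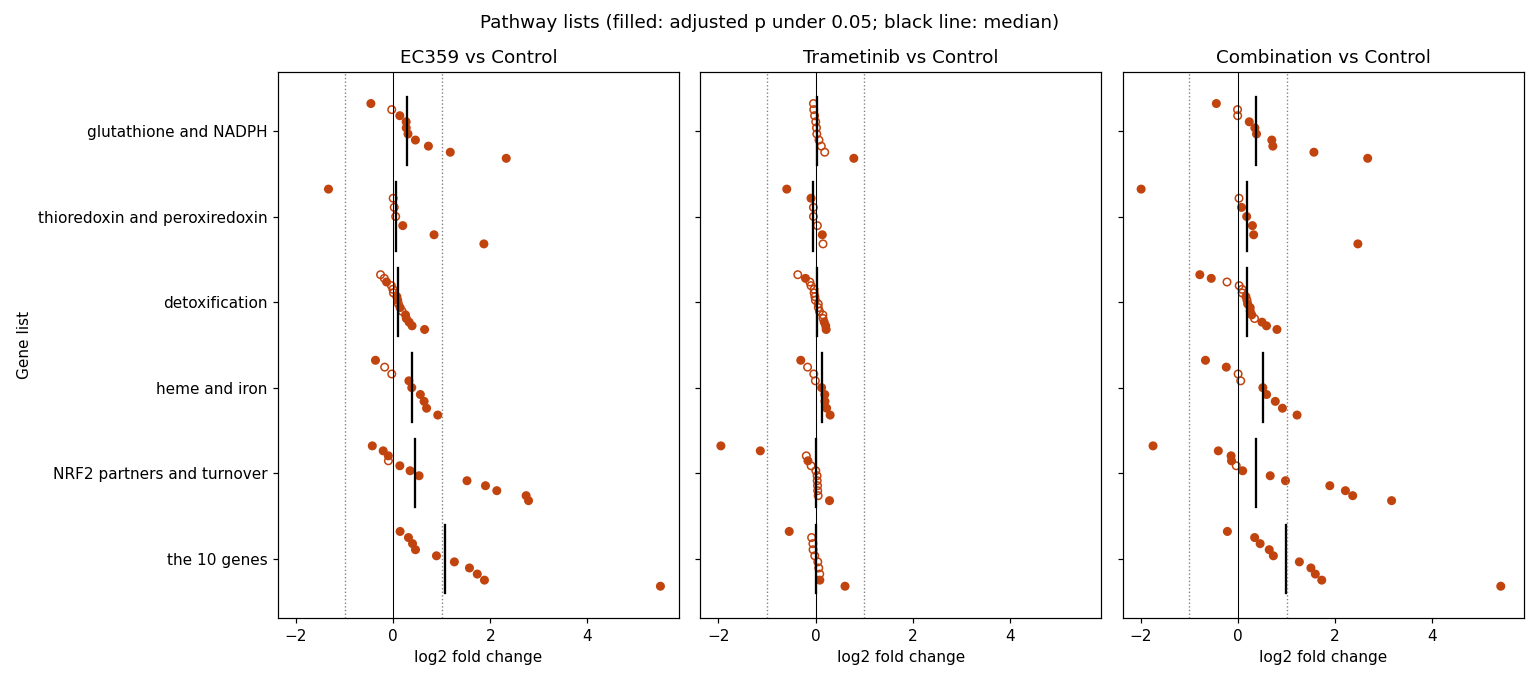
Log2 fold changes against control of the tested genes in the 5 pathway lists and of the 10 genes, with EC359, trametinib or both. Each point is a gene, filled where its adjusted p was below 0.05, black lines are medians and dotted lines mark 2-fold. The median of the glutathione and NADPH list was 0.29 with EC359, 0.02 with trametinib and 0.36 with both on the TMM scale plotted (0.15, 0.05 and 0.22 under total counts).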

How the data were processed

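RNA was measured in 12 OVCAR8 libraries (polyA RNA, Illumina stranded mRNA libraries, paired-end reads). Per the file headers, the authors counted reads per gene with featureCounts 1.5.0-p1 on the UCSC hg38 annotation, with strand used, a mapping quality of at least 2 and reads of several alignments or genes split into fractions, so the values as deposited by the authors are estimated counts (expected counts) that need not be whole. The submitters' processing notes name bcl2fastq and HISAT2, whose versions are not given in the sources used here. Fractional counting can move reads between similar genes, and 12.4% to 15.1% of genes had fractional counts in a library. Counts were rounded to whole numbers and tested with edgeR 4.0.16 (R 4.3.3, limma 3.58.1): filterByExpr (minimum count 10, minimum total 15), TMM scaling, and glmQLFit with glmQLFTest on all 4 groups, without a replicate block, Benjamini-Hochberg adjustment over the 14865 genes kept, and calls at an adjusted p under 0.05. Calls at 2-fold also needed a change of at least 2-fold, close to the pair of limits the study gives for its own gene lists. TMM factors were 0.947 to 1.06, and lower in the libraries with EC359. Replicates of a group were compared and no library was a copy of another. Confidence intervals cover 95% and floors of 3 counts cover counting error only. The scripts were tested on simulated data.

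The members and lists were chosen with earlier results of these data known. The text names all 10 members and, of each list, the genes called at 2-fold in a comparison with control (the 4 of largest change where there were more), and the 5 genes most like HMOX1 and the 3 most like BACH1 and KEAP1. Alternatives were DESeq2 1.42.0, its size factors or total counts in edgeR, other filters on low counts, glmTreat against 1.5-fold, a replicate block, fits on the groups compared alone, TPM for levels per length and leaving out each library. Promoter sequences are from RefSeq. Figures were drawn with matplotlib 3.10.9 in Python 3.11.15.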

Additional observations from a re-analysis of the deposited data

Results flagged for a closer look

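For 6 members the response to EC359 differed with and without trametinib, by edgeR's test of the difference itself (log2 change with trametinib minus log2 change without it), while 30.3% of all genes were called in that test. The response was smaller with trametinib for HMOX1 (-0.70), NFE2L2 (-0.25) and TXNRD1 (-0.23), and larger for GCLC (0.24) and GCLM (0.11). For SRXN1 (-0.28) the response changed sign, from 0.14 on vehicle to -0.14 on trametinib. Under total counts the SRXN1 response on vehicle was 0.01 (edgeR adjusted p = 0.877). The GCLM call was lost without control replicate 1, EC359 replicate 1 or trametinib replicate 2, and under total counts (edgeR adjusted p from 0.0781 to 0.11). With EC359 alone the log2 fold changes were 5.50 for HMOX1, 1.73 for TXNRD1, 1.57 for GCLM, 0.89 for NFE2L2, 0.46 for GCLC and 0.14 for SRXN1. Only for SRXN1 among these 6 was the difference larger in size than the response to EC359 alone, and the gene was below control with both agents.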

How the results depend on the processing

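Of 178 member counts under the alternatives, 170 stayed within 1.5 times the reported count. All 40 levels per length moved by more than their SD in TPM, which puts them on another scale. Tested by glmTreat against a change of 1.5-fold, 6 members were called with EC359 against control, 6 with both agents against control and 6 with both against trametinib, and 0 with trametinib, between the combination and EC359, or in the interaction. Of all 14865 genes, that test called 1384, 2779 and 2317 in the first 3 of these comparisons and 199, 474 and 99 in the last 3. With trametinib, 5 members were called under DESeq2's size factors in edgeR and 5 under total counts. Leaving out each library in turn gave 3 to 4 members called with trametinib, 7 to 8 between the combination and EC359, 5 to 6 in the interaction and 10 in the other comparisons.

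Reversed signs were limited to uncalled values near 0. For trametinib, GCLC ranged from -0.1032 to 0.0044 over the libraries left out and KEAP1 was 0.0077 under total counts. Between the combination and EC359, BACH1 was -6e-04 under DESeq2's size factors, -0.0021 under total counts, -4e-04 in DESeq2, -0.0038 without a filter, and -0.0134 to 0.0104 over the libraries left out. The NQO1 interaction ranged from -0.0232 to 0.0058 over the libraries left out. The cause was not tested.

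Total counts shifted the median of all genes to -0.15 with EC359 and -0.14 with both agents in log2, and took the share of higher calls from 50.4% to 31.8% with EC359, from 50.2% to 36% with both, from 51.7% to 33.1% for both against trametinib and from 46.2% to 58.4% with trametinib. Requiring 10 counts in every library, which tests fewer genes, lowered the genes called at 2-fold from 213 to 134 with trametinib, from 482 to 263 between the combination and EC359 and from 233 to 142 in the interaction. With a replicate block the members called were 10, 4, 10, 7, 10 and 6 in the order of the report, and NFE2L2 passed with trametinib (adjusted p = 0.0482). Libraries of one number did not deviate together (0 of 18 pairs correlated above 0.1, and 1 of 12 libraries was closest to its own number), so the numbers were not taken as pairs.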

Other observations

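Of the heme and iron list, both ferritin subunits, which store iron inside the cell, were chosen for mention after their values were seen, since neither passed 2-fold. FTH1 averaged 953 CPM in control, 1087 with trametinib, 1535 with EC359 and 1796 with both agents. FTL averaged 915 CPM in control, 997.5 with trametinib, 1424 with EC359 and 1558 with both. BACH2 and NFE2L3, relatives of BACH1 and NFE2L2, were also chosen after their values were seen. BACH2 averaged 1.20 CPM in control, 1.05 with trametinib, 3.45 with EC359 and 2.36 with both. NFE2L3 averaged 25.0 CPM in control, 11.4 with trametinib, 18.6 with EC359 and 7.44 with both, lower in each treated group, while NFE2L2 was higher in both groups with EC359.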
